A study of Mus musculus with 20 samples.

Results

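The Lce1 genes encode late cornified envelope proteins, small proteins of the outermost epidermis, and were followed here in DC2 cells, an immortalized line of mouse distal caput principal cells from the epididymis. The 10 members Lce1a1, Lce1a2, Lce1b, Lce1c, Lce1d, Lce1e, Lce1f, Lce1g, Lce1h and Lce1i were taken by gene symbol from 21509 protein-coding genes, and their levels were also summed per library. The family was chosen by its fold changes between Ift88 siRNA and control siRNA, so its values in that experiment, and how many members passed the thresholds there, are a description and support nothing about the family. In the first experiment, 6 libraries came from cells put under laminar flow for 3 h at a shear stress of 1 dyn/cm2 (flow) and 6 from cells kept without it (static). In the second, 4 libraries came from cells transfected with a mix of siRNAs against Ift88 (Ift88 siRNA) and 4 from cells with a scrambled siRNA (control siRNA), and both of these groups were under flow according to the methods of the study, although their labels do not name it. No gene was deleted in any group, Ift88 was lowered and not removed, and every library came from the same cell line. The labels of flow replicate 6 conflict, since its title says flow and its treatment field says static, and it was counted as flow.

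A cornified envelope replaces the plasma membrane of a dying keratinocyte. Precursors such as loricrin, involucrin and the small proline-rich (Sprr) proteins are cross-linked by transglutaminases under the membrane, and the Lce proteins are added late. Their genes lie with those of the precursors and of many S100 proteins in 1 stretch of the genome, the epidermal differentiation complex. Ift88 encodes a subunit of the intraflagellar transport machinery that builds the primary cilium, and the siRNA experiment asked how cells with fewer cilia respond to flow.

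All 10 members lie on chromosome 3 of GRCm38 in the GENCODE M21 annotation, within 132365 bases from Lce1a1 to Lce1i. Each has 2 exons, and only exon 2 is coding. The 3 members detected at more than trace levels, Lce1f (chr3:92718685-92720350), Lce1g (chr3:92750148-92752338) and Lce1h (chr3:92763215-92765065), all on the minus strand, follow each other in the order of the Lce genes and span 46381 bases. A further coding gene, Gm38119, lies between Lce1f and Lce1g (chr3:92737651-92739096, minus strand).

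The coding parts are alike, which matters for any count of reads per gene. Their first 60 bases are shown for the 3 detected members and for the neighbours Lce1e and Lce1i, from the start codon, with capitals where a base differs from Lce1g.
Lce1e: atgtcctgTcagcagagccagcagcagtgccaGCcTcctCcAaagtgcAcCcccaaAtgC
Lce1f: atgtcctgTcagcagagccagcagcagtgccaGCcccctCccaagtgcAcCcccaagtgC
Lce1g: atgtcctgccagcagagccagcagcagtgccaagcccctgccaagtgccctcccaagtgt
Lce1h: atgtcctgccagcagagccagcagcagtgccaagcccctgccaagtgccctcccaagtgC
Lce1i: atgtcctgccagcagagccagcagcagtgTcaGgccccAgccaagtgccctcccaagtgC
Over these 60 bases Lce1h differed from Lce1g at 1 base, Lce1i at 4, Lce1f at 7 and Lce1e at 10. Over the whole coding part the identity of the 45 pairs of members ran from 75.1% to 95.7%, with a median of 86.8%. Lce1f and Lce1g were 90.5% identical, Lce1g and Lce1h 87.2%, and Lce1f and Lce1h 80.3%.

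The authors assigned reads with kallisto, which matches words of the read to words of the transcripts, and its default word length of 31 bases was used to ask how much of each transcript is its own. In the reference transcripts, 66.8% of the words of Lce1f, 61.5% of those of Lce1g and 52.1% of those of Lce1h occurred in no other gene. The share was lowest in Lce1i, at 41.1%. The remaining words were shared with other Lce genes or with Gm38119. In the coding part alone, the share of words found in no other gene was between 24.2% and 50.1%, and outside it between 63.3% and 97.9%. Of the Lce1g words, 14.3% were also in Lce1f and 14.3% in Lce1h. Over 52% of the words of each detected member were thus its own, while values of a few reads in the other members and reads of the abundant ones cannot be told apart with certainty. Gm38119 itself was above 0 in 2 of the 12 flow and static libraries and in 1 of the 8 siRNA libraries, with a highest value of 0.235 TPM.

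**Figure D1:**
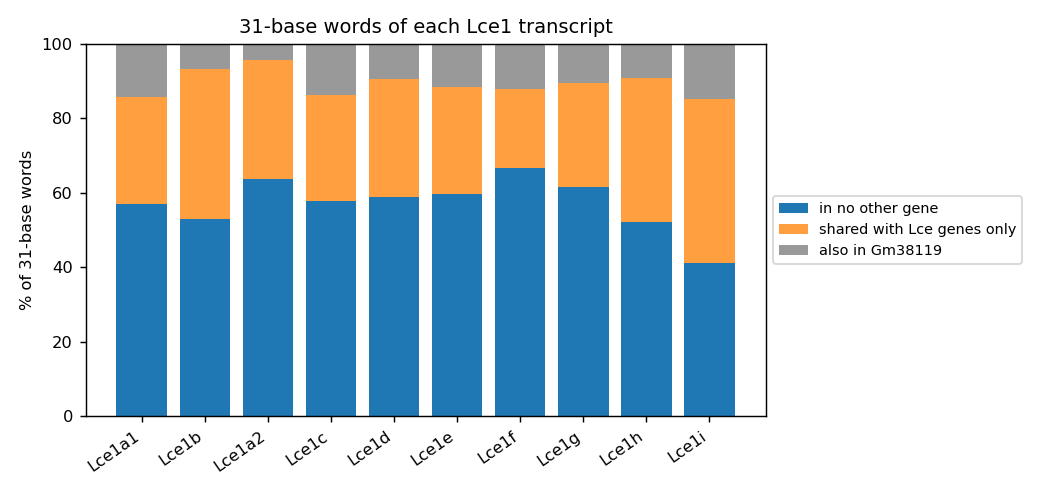
Share of 31-base words (percent, stacked bars) in the longest transcript of each Lce1 gene that occur in no other gene, that are shared with Lce genes only, or that also occur in Gm38119. The share found in no other gene runs from 41.1% in Lce1i to 66.8% in Lce1f.

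The 100 bases before the transcription start were compared because the members differ so much in level. RefSeq promoters of GRCm38.p6 covered 9 members and not Lce1f. Those of Lce1g, Lce1h and Lce1c are shown 5′ to 3′ on the strand of the gene, with the letters ATAAAAGG in capitals, a word that was chosen after the sequences had been seen.
Lce1c: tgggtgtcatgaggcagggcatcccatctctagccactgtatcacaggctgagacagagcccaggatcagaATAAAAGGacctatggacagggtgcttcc
Lce1g: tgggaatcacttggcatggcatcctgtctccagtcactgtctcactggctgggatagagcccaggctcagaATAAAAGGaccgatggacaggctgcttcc
Lce1h: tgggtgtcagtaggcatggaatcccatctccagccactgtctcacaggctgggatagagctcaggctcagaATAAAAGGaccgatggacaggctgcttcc
The windows are chr3:92679147-92679246 (plus strand), chr3:92752339-92752438 and chr3:92765066-92765165 (minus strand). ATAAAAGG began 29 bases before the start (position -29) in 7 of the 9 members. Anywhere in the 100 bases, on either strand, it was in 77.8% of the 9 and in 0.846% of the 32851 promoters. Compared base by base without gaps, Lce1h had the same base as Lce1g at 90 of 100 positions, Lce1i at 85 and Lce1c at 83. Lce1c, with these 83 shared bases, was listed at 0 in every library. In the 250 bases before the start, TATAAA overlapped ATAAAAGG in Lce1d alone (1 of 9, against 12.4% of all promoters). The AP-1 word TGANTCA was in 0 of 9 (6.75% of all), CCAAT in 0 of 9 (33.8%) and the antioxidant response word TGACNNNGC in 1 of 9 (10.2%).

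Values are TPM, the share of a gene in all transcripts of a library after correction for length, scaled to 1000000 per library, so that levels can be compared between genes. In the flow experiment 8 of the 10 members were above 0 in at least 1 library, and in the siRNA experiment 9 of 10. Lce1c was listed at 0 in all 20 libraries, and Lce1a2 in all 12 flow and static libraries. The 7 members other than Lce1f, Lce1g and Lce1h were above 0 in 8 of 84 values of the flow experiment, between 0.116 and 0.266 TPM, and in 12 of 56 values of the siRNA experiment, between 0.170 and 0.660 TPM. Only members that averaged 1 TPM or more over a table were tested. In the flow experiment this was Lce1g (mean 31.95 TPM), with Lce1h (0.533) and Lce1f (0.270) below the limit. In the siRNA experiment Lce1g (106), Lce1f (49.7) and Lce1h (3.97) passed, and the next member, Lce1a2, had a mean of 0.158.

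**Figure D2:**
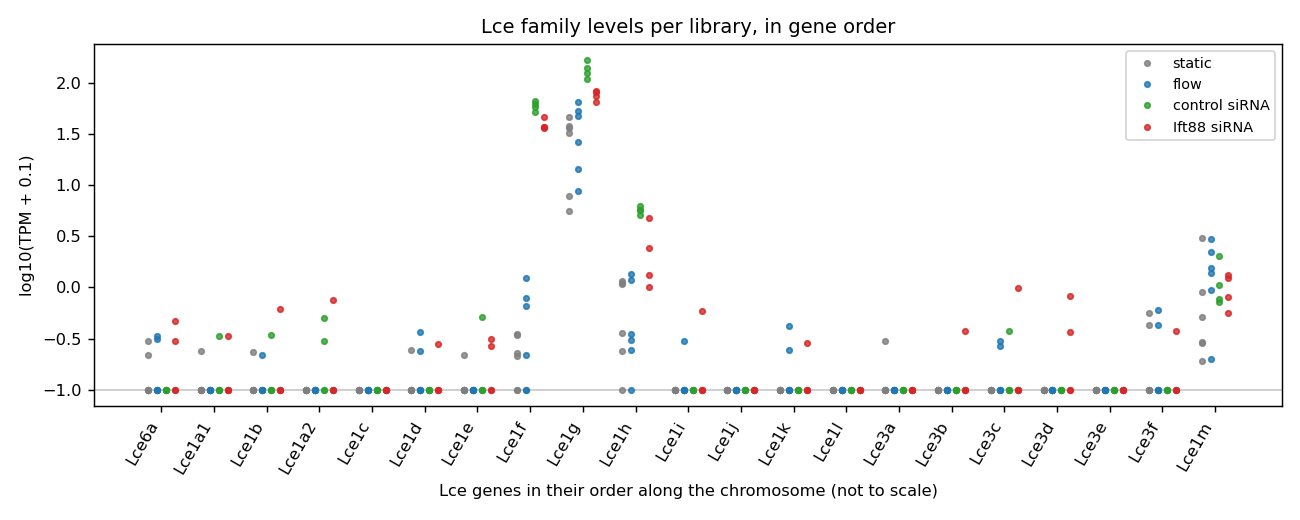
Level of every Lce gene in each of the 20 libraries, as log10(TPM + 0.1), with the genes in their order along the chromosome and colours for static, flow, control siRNA and Ift88 siRNA. Points on the line at -1 are listed at 0; Lce1f, Lce1g and Lce1h stand above their neighbours on both sides in the siRNA experiment, and Lce1g in all 20 libraries.

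Lce1g carried the family. In the 6 static libraries it was at 46.5, 32.5, 36.6, 37.8, 5.45 and 7.74 TPM for replicates 1 to 6. In the 6 flow libraries it was at 53.5, 26.8, 47.6, 65.8, 8.65 and 14.5 TPM. Replicates 5 and 6 were low in both groups, and the groups overlapped widely. The means were 36.1 ± 22.9 (flow) and 27.8 ± 17.04 (static) TPM (SD, n = 6 each), and Lce1g made up between 91.8% and 98.7% of the Lce1 sum.

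Lce1g did not pass the test between flow and static. Its log2 fold change was 0.41 (SE 0.58, limma over 11388 genes, adjusted p = 0.998), on the scale of log2(TPM + 1) used for all fold changes here. Of the 1 member tested, 0 were called (adjusted p under 0.05, over 1.5-fold in size), and 0 had an unadjusted p under 0.05 in this limma fit without pairs. Over all genes 0.105% were called higher and 0% lower, and 438 genes had an unadjusted p under 0.05. Same-numbered libraries of both groups moved together across genes and were taken as pairs. Within these pairs Lce1g was higher under flow in 5 of 6, with differences from -0.27 in replicate 2 to 0.82 in replicate 6. When the pairs entered the fit as a replicate block, its SE fell to 0.13, and its adjusted p of 0.273 stayed over the threshold. The unadjusted limma p of Lce1g was 0.00783 in that fit, where 1266 of 11388 genes had one under 0.05. The difference of Lce1g was 0.10 within replicates 1 to 3 (limma adjusted p = 0.9998) and 0.73 within replicates 4 to 6 (adjusted p = 0.940). With flow replicate 6 counted as static the log2 fold change was 0.68, and without replicate 6 of both groups it was 0.33.

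**Figure D3:**
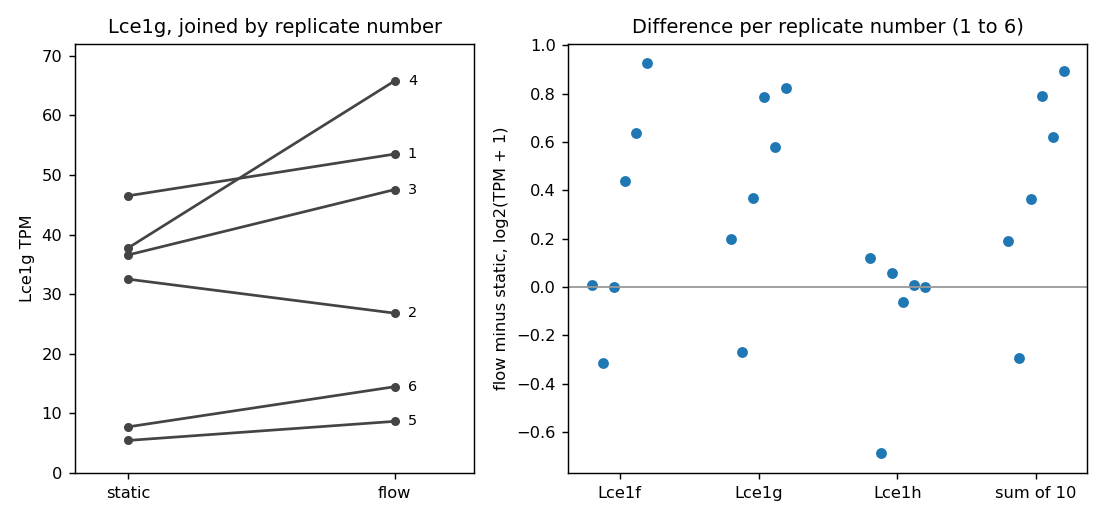
Left, Lce1g in TPM in static and flow libraries, joined by replicate number (1 to 6). Right, flow minus static per replicate number on the log2(TPM + 1) scale for Lce1f, Lce1g, Lce1h and the sum of the 10 members, with replicates 1 to 6 from left to right and a line at 0; Lce1g is above 0 in 5 of 6 pairs.

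Lce1f was close to 0 in this experiment. It was at 0.114, 0.243, 0, 0.247, 0 and 0.130 TPM in static replicates 1 to 6 and at 0.119, 0, 0, 0.690, 0.557 and 1.14 TPM in flow replicates 1 to 6. The 3 highest values were flow replicates 4 to 6, but the remaining flow libraries lay within the static range. Lce1h was at 1.07, 1.02, 0.993, 0.258, 0.138 and 0 TPM in static replicates 1 to 6 and at 1.246, 0.251, 1.07, 0.205, 0.145 and 0 TPM in flow replicates 1 to 6. It was low in replicates 4 to 6 of both groups and in flow replicate 2, and the groups overlapped. The sum of the 10 members was 37.2 ± 23.1 (flow) and 28.6 ± 17.5 (static) TPM (SD, n = 6 each), a difference of 0.43 on the log2 scale with an SE of 0.67, or 0.18 when taken by pairs.

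The low replicates 5 and 6 also differed in other respects. Their Lce1 sum was between 5.73 and 15.8 TPM in the 4 libraries, against 27.3 to 67.0 TPM in the 8 libraries of replicates 1 to 4. The summed leukocyte markers, which here are almost wholly Cd68 with Adgre1 and Cd3e at 0, were at 20.1 to 64.0 TPM against 10.1 to 16.3 TPM. The summed epithelial markers, mostly Cldn4, Krt18 and Krt19, were at 118 to 294 TPM against 67.0 to 133 TPM. The suprabasal keratinocyte markers also overlapped, at 23.4 to 29.3 against 24.6 to 31.6 TPM. The part of these differences in the Lce1 levels was not tested.

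In the siRNA experiment the targeted gene was low where the labels say so. Ift88 was at 1.71, 1.27, 1.28 and 0.917 TPM in Ift88 siRNA replicates 1 to 4 and at 4.21, 4.08, 4.15 and 4.12 TPM in the controls (log2 fold change -1.17, SE 0.13, limma adjusted p = 0.00212). The mean remaining was 31.3% of the control mean.

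Lce1g was lower in every Ift88 siRNA library than in any control. It was at 82.2, 65.4, 74.8 and 83.2 TPM in the Ift88 siRNA replicates 1 to 4 and at 126, 141, 110 and 167 TPM in the controls. The means were 76.4 ± 8.23 and 136 ± 24.3 TPM (SD, n = 4 each), so that 56.1% of the control mean remained, with a log2 fold change of -0.82 (SE 0.11). Lce1f was at 37.5, 37.4, 36.2 and 47.0 TPM with Ift88 siRNA and at 58.2, 62.0, 51.7 and 67.4 TPM with control siRNA. Its groups did not overlap either, and 66.0% of the control mean remained (39.5 ± 5.02 against 59.8 ± 6.62 TPM, SD, n = 4 each; log2 fold change -0.59, SE 0.10). Lce1h was at 1.23, 2.32, 0.917 and 4.72 TPM with Ift88 siRNA and at 5.05, 6.16, 5.70 and 5.69 TPM with control siRNA. Its Ift88 siRNA replicate 4 came close to the lowest control, and the other 3 lay well below (2.30 ± 1.72 against 5.65 ± 0.453 TPM, SD, n = 4 each; log2 fold change -1.15, SE 0.27).

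Of the 3 members that entered the fit of this contrast, 2 (Lce1g and Lce1f) were past the thresholds of a call and Lce1h was not. Over the 11209 genes tested, 0.0714% were called lower and 0.152% higher, and in 2.79% the Ift88 siRNA libraries all lay below the controls. This contrast chose the family, and nothing is read from the count, which also moved with single libraries. Lce1f was no longer past the thresholds without Ift88 siRNA replicate 1, 2 or 3 or control siRNA replicate 1, 2 or 4, each left out alone. In those fits its log2 fold change lay between -0.60 and -0.53. Lce1h was past the thresholds without Ift88 siRNA replicate 4 (3 members). The Lce1 sum was at 121, 105, 112 and 136 TPM in the Ift88 siRNA replicates 1 to 4 and at 190, 210, 168 and 241 TPM in the controls. Its mean fell from 202 ± 31.03 to 119 ± 13.4 TPM (SD, n = 4 each), and the log2 difference was -0.76 (SE 0.14).

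**Figure D4:**
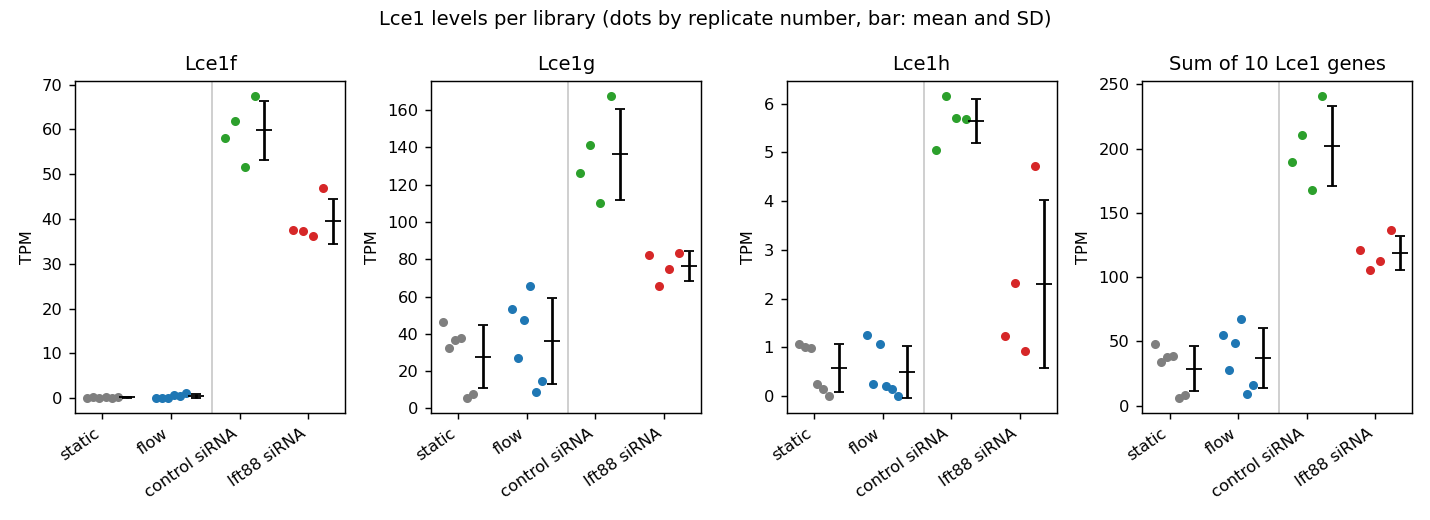
TPM per library of Lce1f, Lce1g, Lce1h and the sum of the 10 Lce1 genes in static, flow, control siRNA and Ift88 siRNA cells. Dots are in the order of the replicate numbers, and bars give the mean and SD. The vertical line separates the flow experiment from the siRNA experiment. The Ift88 siRNA dots all lie below the control siRNA dots in each panel, whereas flow and static overlap.

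The Ift88 siRNA libraries differed from the controls in another general respect. Between 15713 and 16682 genes were above 0 in them, against 15292 to 15382 in the controls, so these ranges did not overlap, and the part of this in the Lce1 levels was not tested. Among the markers, the leukocyte sum was at 87.2 to 96.7 TPM in Ift88 siRNA and at 90.3 to 99.0 TPM in control libraries, and the suprabasal keratinocyte sum at 32.3 to 41.1 and 39.5 to 49.1 TPM. Both pairs of ranges overlapped.

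The composition of the family differed between the experiments. Lce1f was between 28.0% and 35.5% of the Lce1 sum in the 8 siRNA libraries and between 0% and 7.27% in the 12 flow and static libraries. The ratio of Lce1f to Lce1g was 0.403 to 0.469 in the controls and 0.456 to 0.571 with Ift88 siRNA, and was at most 0.0791 in the flow experiment. Within the siRNA experiment the ratio thus overlapped between groups. Although the study places both the flow libraries and the control siRNA libraries under flow, Lce1g was at 8.65 to 65.8 TPM in the former and at 110 to 167 TPM in the latter. The tables come from separate experiments, and transfection, culture and sequencing cannot be told apart between them, so this difference was not tested.

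Other epidermal differentiation genes were read from lists of envelope precursors, S100 genes, enzymes, structural genes, transcription factors and the other Lce genes. These held 104 genes, of which 100 were in the tables. In the flow experiment 35 of them were tested, 20 with a fold change above 0 and 15 below, and limma called 0 (6 had an unadjusted p under 0.05). Their median log2 fold change was 0.07, against -0.03 over all genes. In the siRNA experiment 38 were tested, 16 above 0 and 22 below, and limma called 0 (11 had an unadjusted p under 0.05), with a median of -0.08 against 0.02. Over all genes, 438 of 11388 had such a p in the flow experiment and 1561 of 11209 in the siRNA experiment. With the flow and static pairs as a replicate block, limma called 2 of the 35, the AP-1 factors Junb and Fosl2, both higher.

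Of the other Lce genes, Lce1m had the highest mean in each table (1.11 and 0.965 TPM), and the other 10 were at most at 0.889 TPM in any library. Lce1m, the only 1 of 11 that was tested in the flow experiment, had a log2 fold change of 0.52 (SE 0.34, limma adjusted p = 0.998). It was at 0.0893 to 2.94 TPM in static and 0.0992 to 2.89 TPM in flow libraries, and none of the 11 reached the limit in the siRNA experiment.

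Of the envelope precursors and fused S100 proteins, 10 were tested in the flow experiment (3 above 0 and 7 below) and 11 in the siRNA experiment (3 above and 8 below). Called by limma were 0 in each, and 0 and 2 had an unadjusted p under 0.05, beside 438 of 11388 and 1561 of 11209 genes. Sprr1a, a small proline-rich precursor, was far more abundant than any Lce1 gene. It had means of 1261 ± 365 (flow) and 1071 ± 402 (static) TPM (SD, n = 6 each; log2 fold change 0.29, SE 0.26), and of 1713 ± 236 (Ift88 siRNA) and 1896 ± 265 (control siRNA) TPM (SD, n = 4 each; -0.15, SE 0.11). Sprr2i had means of 206 ± 76.0 (flow) and 218 ± 89.6 (static) TPM (log2 fold change -0.04, SE 0.31), and of 63.2 ± 11.9 and 68.1 ± 10.5 TPM in the siRNA groups (-0.11, SE 0.13). Sprr2d (log2 fold change 0.08 in the flow and 0.29 in the siRNA experiment) and Sprr2b (-0.03 and 0.29) were not called. The Sprr2 genes are themselves alike in sequence, and reads may have been split between them.

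Of the S100 genes of the complex, calcium-binding proteins, 9 were tested in each experiment, and limma called 0. In limma 2 and 3 had an unadjusted p under 0.05, beside 438 of 11388 and 1561 of 11209 genes. Of the 9, 5 were above 0 and 4 below under flow, and 4 above and 5 below with Ift88 siRNA. The most abundant were S100a6 (4986 ± 908 TPM with flow, 4756 ± 688 TPM without), S100a11, S100a10 and S100a4, with log2 fold changes between -0.07 and 0.17 in the flow experiment. In the siRNA experiment these 4 lay between -0.29 for S100a4 (SE 0.10, limma adjusted p = 0.216) and 0.09 for S100a11. Of the cornification enzymes and structural genes, 5 and 7 were tested (3 above 0 and 2 below, 1 above and 6 below), and limma called 0, with 0 and 2 at an unadjusted p under 0.05. They included Krt10, a keratin of suprabasal keratinocytes (33.6 ± 4.58 TPM in Ift88 siRNA and 40.3 ± 3.88 TPM in control libraries, log2 fold change -0.26, SE 0.10), and Cdsn, which encodes corneodesmosin (15.6 ± 1.31 and 12.4 ± 1.41 TPM, 0.32, SE 0.10). The plakin Ppl and the secreted protein gene Sbsn had log2 fold changes of -0.08 and -0.09 there, and of -0.11 and 0.14 in the flow experiment.

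Transcription factors known from epidermal differentiation were the list with the widest range under flow. Of 10 tested, 8 had a fold change above 0 and 2 below, with a median of 0.36, and limma called 0 (4 had an unadjusted p under 0.05). Junb, an AP-1 subunit, was at 43.7 to 68.4 TPM in static and 91.2 to 656 TPM in flow libraries (log2 fold change 2.11, SE 0.42, limma adjusted p = 0.0792). With the replicate block, where 0.597% of all genes were called higher, limma called 2 of the list, Junb (adjusted p = 0.00643) and the AP-1 subunit Fosl2 (log2 fold change 1.06, adjusted p = 0.0473), which was chosen after its values were seen. Fosl1, also of AP-1, had means of 209 ± 85.4 (flow) and 87.7 ± 29.8 (static) TPM (SD, n = 6 each; 1.22, SE 0.28, limma adjusted p = 0.136). These factors were not called in the siRNA experiment, where Junb, Fosl1 and Fosl2 had log2 fold changes of 0.13, 0.09 and 0.06. There 11 of the list were tested (8 above 0 and 3 below), 4 at an unadjusted p under 0.05 in limma, beside 1561 of 11209 genes. Arnt and Trp53 were within 0.25 of 0 on the log2 scale in both experiments.

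The cell type label was checked against markers. Aqp9, a water channel of epididymal principal cells, was at most at 0.413 TPM, and Crisp1, which encodes a secreted protein of these cells, was listed at 0 in all 20 libraries. These defining markers of principal cells were thus at or near 0. Among suprabasal keratinocyte markers, Krt1, Flg and Krtdap were at 0 in the flow experiment and at most at 0.407 TPM in the siRNA experiment, whereas Krt10 was at 14.7 to 23.4 TPM in the former and at 28.4 to 45.5 TPM in the latter. The 5 basal markers were together at most at 1.17 TPM in any library. Lor, which encodes loricrin, was at 6.60 to 10.3 TPM in the flow experiment and at 2.33 to 4.28 TPM in the siRNA experiment, and Ivl, which encodes involucrin, was at most at 0.886 TPM.

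The genes whose pattern was most like that of the Lce1 sum over the 12 flow and static libraries were ranked by Pearson's r of log2(TPM + 1) among 11380 genes outside the Lce family. S100a7a, an S100 gene of the epidermal differentiation complex, came first with r = 0.94. It was at 67.1, 29.0, 59.5, 48.4, 10.6 and 24.0 TPM in flow replicates 1 to 6 and at 41.5, 33.8, 44.6, 34.4, 7.47 and 18.8 TPM in static replicates 1 to 6. Like Lce1g it was low in replicates 5 and 6 of both groups. After the means of replicates 1 to 3 and 4 to 6 in each group were taken out, r was 0.91. Replicate 4, at Lce1 sums of 67.0 (flow) and 38.3 (static) TPM, shares a block with the low replicates 5 and 6. This centring leaves their difference in, so r after it does not show likeness beyond these low replicates. Over the 8 siRNA libraries r was 0.80, and 0.34 within the groups, where S100a7a was at 22.4, 25.2, 25.0 and 25.7 TPM with Ift88 siRNA and at 33.9, 39.3, 26.5 and 30.9 TPM with control siRNA. Its groups did not overlap there, and its log2 fold change of -0.38 (SE 0.11, limma adjusted p = 0.143) was not called. Next came Hmga1 (r = 0.94 over the 12 libraries), Npm1 (0.93), Txn1 (0.92), Znhit1 (0.92) and Rps27a (0.91), with r between 0.89 and 0.97 after the same centring. Over the siRNA libraries the r of these 5 ranged from 0.22 for Txn1 to 0.86 for Npm1, which includes the group difference that chose the family. Within the siRNA groups the order was another, with 0.84 for Txn1, 0.65 for Hmga1, 0.58 for Npm1, 0.39 for Znhit1 and -0.005 for Rps27a. The libraries share treatment, replicate number and composition, and these r describe likeness only.

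**Figure D5:**
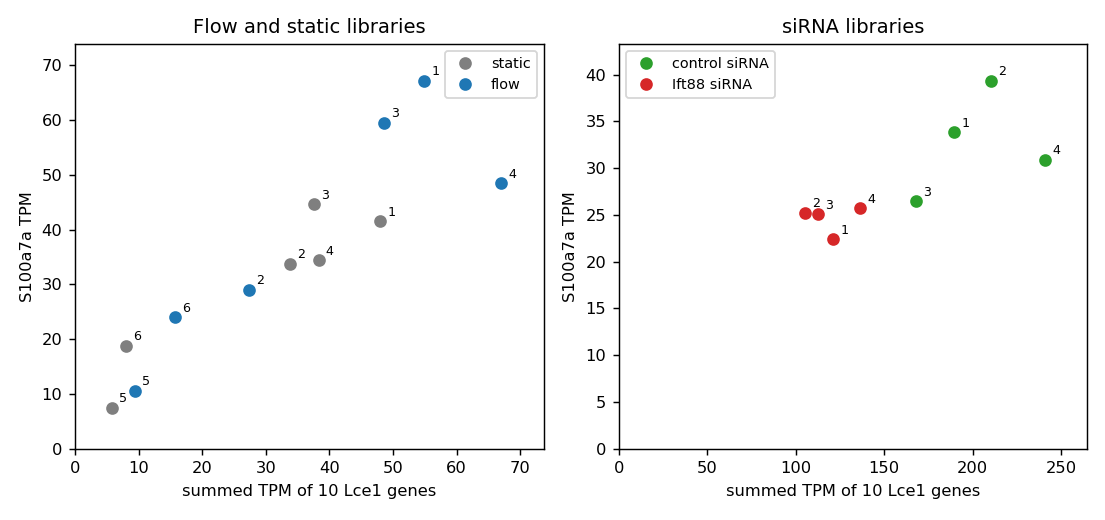
TPM of S100a7a (vertical axis) against the summed TPM of the 10 Lce1 genes (horizontal axis) in flow and static libraries (left) and siRNA libraries (right), with replicate numbers beside the points. Replicates 5 and 6 lie lowest on the left, at Lce1 sums of 5.73 to 15.8 TPM.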

How the data were processed

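DC2 cells were profiled by RNA-seq of poly(A)-selected directional libraries. According to the methods of the study, the authors used Trimmomatic for trimming, kallisto with the Ensembl mouse transcripts for assignment, tximport for gene-level sums and DESeq2 for tests. The submitters' processing notes name fastp 0.20.0 and kallisto 0.46.2. The authors deposited TPM, 1 table per experiment, which hold neither read counts nor the scaling used in their tests, so the depth behind each value is unknown and no count test was run.

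From these values log2(TPM + 1) was tested with limma 3.58.1 in R 4.3.3 (lmFit, eBayes with trend) over all genes that averaged 1 TPM or more, and p-values were adjusted by Benjamini-Hochberg. A call needed an adjusted p under 0.05 and over 1.5-fold change. Tests were made within a table only. Labels do not say whether replicates were separate cultures, so p-values measure the spread between these libraries. The procedure was tested on simulated data. Members, lists and markers were chosen with earlier results of these data known, and so was the rule for named genes: all members, from each list the genes called and up to 4 of the highest static level, and the 6 genes most like the Lce1 sum.

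Flow and static libraries of the same number deviated together from their group means (correlation over genes 0.294, 0.463, 0.425, 0.468, 0.662 and 0.600 for replicates 1 to 6), which was taken as pairing, although flow replicate 3 matched static replicate 1 best. Alternatives were no filter, a pseudocount of 0.1, library weights, scaling by median of ratios, the replicate block, each library left out, replicates 1 to 3 and 4 to 6 apart, the label of flow replicate 6, and all Lce genes in the sum. Sequences were read from GENCODE M21 and RefSeq, an older annotation than that of the tables. Python 3.11.15 was used for the other steps. The values of 1 listed marker are not reported here.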

Additional observations from a re-analysis of the deposited data

Results flagged for a closer look

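Among the values of the members, 1 of 16 groups of libraries held a library far from the others by Dixon's test. Lce1f in Ift88 siRNA replicate 4 was at 46.98 TPM, and the gap to the next library was 0.880 of the range of that group. Chance marks about 1 in 20 groups. The same library had the highest Lce1h value of its group (4.72 TPM) and 7 members above 0, against 4 in each of the other 3 Ift88 siRNA libraries.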

How the results depend on the processing

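In the flow experiment 0 Lce1 members were called in all 21 alternatives, where the log2 fold change of Lce1g ranged from 0.05 to 0.74. That of the Lce1 sum ranged from 0.07 to 0.77 over 20 alternatives. The count of other epidermal genes called under flow rose from 0 to 1 with median-of-ratios scaling (Junb), 3 with library weights, 2 with the replicate block, 1 within replicates 1 to 3 (Junb) and 2 within replicates 4 to 6 (Junb and Fosl1). Over all genes the calls went from 12 to 28, 86, 68, 5 and 56 in these settings, in the same order. With 1 library left out the count of other epidermal genes was 0 to 3, and 3 without flow replicate 2 (Junb, Fosl1 and Fosl2). Over all genes that library moved the calls from 12 to 87. The cause was not tested. With flow replicate 6 counted as static, no gene of the table was called (181 at an unadjusted p under 0.05 in limma).

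In the siRNA experiment, which chose the members, the count past the thresholds is a description. It went from 2 to 0 without the filter on low TPM. There 19195 genes were tested, calls over all genes went from 25 to 6, and the log2 fold changes of Lce1g and Lce1f were unchanged. The count past the thresholds was 1 to 3 with 1 library left out. It was 3 with library weights and 3 with the replicate block, which added Lce1h. The siRNA numbers did not pair the libraries (correlations 0.0464, 0.00276, 0.259 and 0.176), and replicates 1 and 2 each correlated best with the other number. The block moved the calls over all genes from 25 to 44. The log2 difference of the Lce1 sum ranged from -0.84 to -0.67 over 12 alternatives, and that of Ift88 from -1.63 to -1.09 over 13, called in each. Beyond the calls given, the replicate block changed no other call of a member. Without read counts, values under 1 TPM cannot be given a counting error.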
